A study of Homo sapiens with 8 samples.

Results

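Proteasome subunits, their activators and inhibitor, and the factors that assemble them were examined in Hct116 cells treated with lenalidomide or DMSO. The 44 genes were taken by symbol from a list of proteasome gene names, and all 44 were found among the 23459 genes of the count table.

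The proteasome is the protease that breaks down proteins tagged with ubiquitin. Its 20S core is a barrel of stacked rings, with alpha subunits (PSMA genes) as the outer gates and beta subunits (PSMB genes) inside, of which PSMB5, PSMB6 and PSMB7 carry the chymotrypsin-like, caspase-like and trypsin-like cutting sites. The 19S regulatory particle (PSMC ATPases, PSMD subunits and the ubiquitin receptor ADRM1) recognises, unfolds and feeds in the substrates. Cells exposed to interferon gamma replace the cutting subunits with PSMB8, PSMB9 and PSMB10 and so build the immunoproteasome, which is best known from lymphoid tissue and from the making of peptides for antigen presentation. Lenalidomide binds cereblon (CRBN), the substrate receptor of the CRL4-CRBN ubiquitin ligase, and directs that ligase to further proteins, which the proteasome then degrades.

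Hct116 is an established human colorectal carcinoma cell line of epithelial origin, grown here as an adherent layer in DMEM with FBS. RNA was measured in 8 libraries, 4 from cells given DMSO and 4 from cells given 30 µM lenalidomide in place of it, all collected after 16 h. Both groups were the same unmodified line and, per the study's methods, were transferred to medium with the other isotope label of amino acids when the compound was added, so both share that change. The direction of labelling was reversed in part of the replicates, and the sample labels do not say in which. The libraries were made from total RNA of cells that were split between RNA and protein measurement. A figure caption of the study calls the 4 RNA replicates biological. For the protein experiment on the same samples the study uses both biological and technical. The p-values therefore rest on the spread between these 4 and 4 samples, which may be technical. The study followed protein turnover and measured RNA to see whether lenalidomide also changed RNA levels, up or down. The comparison below asks that RNA question of the proteasome genes.

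The libraries held 28218471 to 37473413 counts, and each lenalidomide library was smaller than each DMSO library. Colon epithelial markers summed to 2223 to 2598 CPM (counts scaled to a library total of 1000000) in the 8 libraries, with EPCAM and KRT19 high and VIL1 at 0 to 2 counts per library. Leukocyte markers, which include the cells best known for immunoproteasomes, summed to 3.96 to 5.7 CPM, almost all of it CD68, and CD3E was at 0 in each DMSO library. Of 13925 genes tested, ZHX1 and LMBRD1 passed an adjusted p of 0.05, which is 0.0144% of them, and 4.18% had an unadjusted p under 0.05.

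The proteasome genes were among the better expressed genes of this line, apart from the inducible cutting subunits. Together the 44 genes took 0.734 to 0.815% of all counts in a library. Levels are compared between genes per length, as RPKM, which here is CPM divided by the exonic width in kilobases that the authors deposited for each gene. Of the 43 genes that passed the filter on low counts, 29 stood at or above the 90th percentile of all genes tested in DMSO, 12 lay between the 50th and the 90th percentile, and 2 lay below the 50th, namely PSMB9 and PSMB10. PSMB8 did not pass the filter and was listed with 2 to 6 counts per library. Because some deposited widths differ from the GENCODE annotation, levels are also given per kilobase of the gene's canonical transcript, a scale that was added after the data were seen. On that scale 32 of the 43 stood at or above the 90th percentile and PSMB9 alone, at percentile 18.3, lay below the 50th, since PSMB10 went from percentile 34.1 to 65.3.

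**Figure D1:**
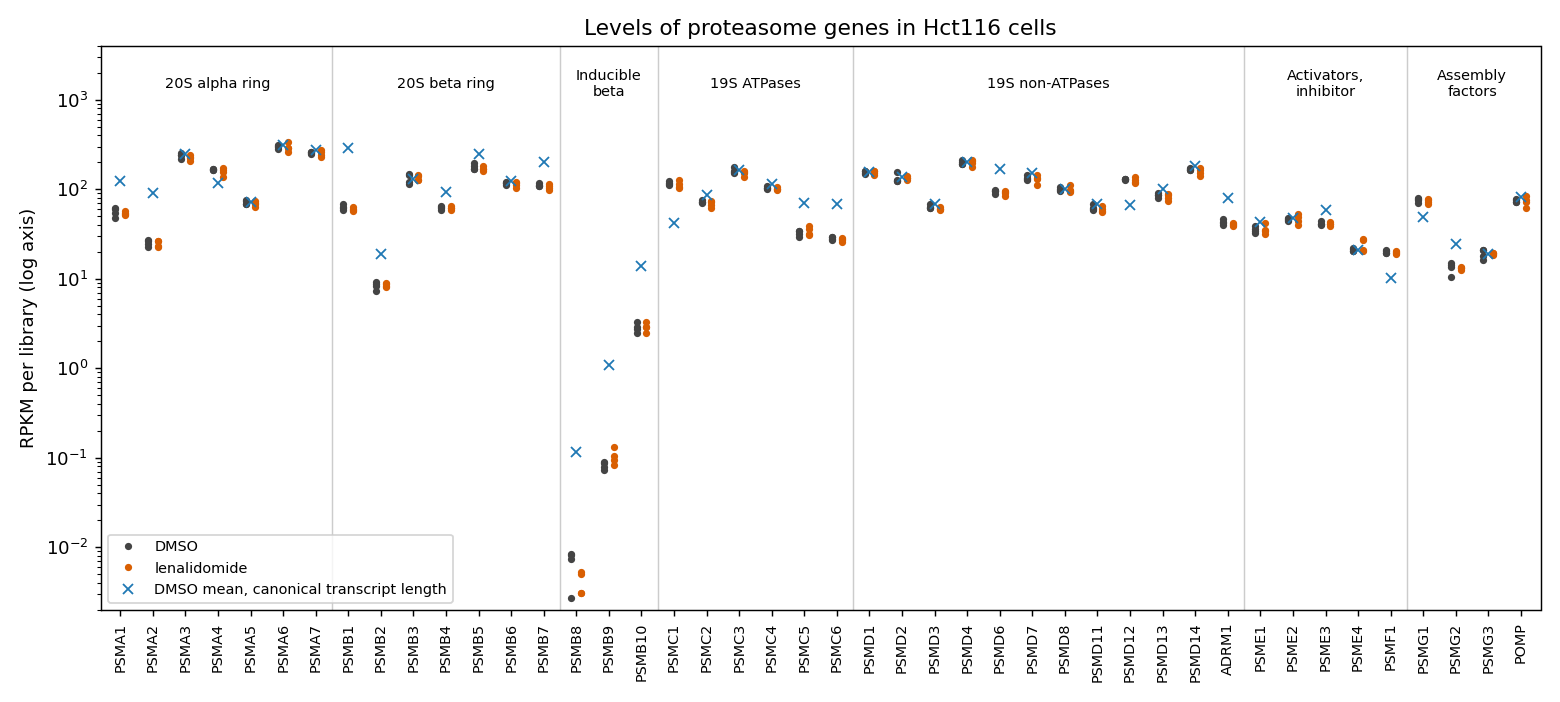
RPKM of the 44 proteasome genes on a log axis, with 1 point per library (4 DMSO in grey, 4 lenalidomide in orange), grouped by role, and a cross for the DMSO mean when canonical transcript length is used. PSMB8, PSMB9 and PSMB10 lie below the genes of the other roles on both scales except that PSMB10 on canonical length reaches 14.0, above PSMF1. The canonical transcript of PSMF1 is longer than its deposited width, so its cross is uncertain. The DMSO and lenalidomide points overlap for each gene.

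The alpha ring, whose subunits are incorporated at equal number, had transcript levels that were far from equal. PSMA6 was highest at 298.6 ± 10.5 RPKM (SD, n = 4) in DMSO and PSMA2 lowest at 25.1 ± 2.07, an 11.9-fold range that became 4.30-fold per canonical length, where PSMA5 was lowest with 72.5 RPKM. Among the constitutive beta subunits, PSMB5, the chymotrypsin-like subunit and the main target of bortezomib, was highest at 177.9 ± 13.3 RPKM and PSMB2, a subunit without a cutting site, lowest at 8.44 ± 0.817. On canonical length PSMB1 was highest at 290.3 and PSMB2 was again lowest at 18.9, a 15.4-fold range. The deposited width of PSMB2 was 2.19 times that of its annotation, so its level per length is uncertain on the first scale.

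The ATPases of the 19S particle, the ring that unfolds substrates, ran from 28.6 RPKM for PSMC6 to 161.1 for PSMC3 in DMSO, a 5.64-fold range. The non-ATPase subunits ran from 42.9 for ADRM1 to 199.2 for PSMD4, a 4.64-fold range, and both of these genes encode ubiquitin receptors. Per canonical length the ATPases ran from 42.4 for PSMC1 to 165.3 for PSMC3, a 3.90-fold range in which PSMC6 had 68.1. The non-ATPases ran from 65.9 for PSMD12 to 201.0 for PSMD4, a 3.05-fold range in which ADRM1 had 79.4. The canonical transcripts of PSMC1 and PSMD12, at 4390 and 4356 bases, are longer than their deposited widths of 1595 and 2214. Their levels and lowest places on that scale are therefore uncertain. PSMC1 shared 76.1% of its annotated exon length with NRDE2 on the opposite strand, and no strand setting is given in the sources used here. That annotated length is 6129 bases, against a deposited width of 1595, so the share within the counted exons is not known. Part of the PSMC1 count may belong to NRDE2.

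Activators with the inhibitor, and assembly factors, had medians of 35.3 and 46.7 RPKM, and of 42.8 and 36.9 per canonical length. PSME1 and PSME2, which form the interferon-inducible 11S cap, had 35.3 ± 2.83 and 45.8 ± 1.49 RPKM in DMSO (SD, n = 4), PSME3, the nuclear 11S activator, had 41.8 ± 1.76 and PSME4 (PA200), a single-chain activator linked to histone degradation, had 21.2 ± 0.926. PSMF1, an inhibitor of the core, had 20.05 ± 0.677. Per canonical length these 5 genes had 42.8, 47.9, 59.1, 21.0 and 10.1 RPKM in the same order, so PSME3 in place of PSME2 was highest. The canonical transcript of PSMF1, at 8154 bases, is longer than its deposited width of 4123, so its level on that scale is uncertain. Of the assembly factors, PSMG1, which acts as a pair with PSMG2 in building the alpha ring, had 75.6 ± 4.25, PSMG2 had 13.4 ± 1.98, PSMG3 had 19.02 ± 2.24 and POMP, the factor that guides the closing of the core, had 74.3 ± 3.16. Per canonical length PSMG1 had 49.2, PSMG2 24.7, PSMG3 18.8 and POMP 81.2 RPKM, so POMP was the highest and PSMG3 the lowest. For PSMG1 the canonical transcript, at 1754 bases, also exceeds the deposited width of 1140, so its place on that scale is uncertain. PSME1 and PSME2 were thus not at the low level of the inducible beta subunits, although the same interferon is known to raise all 5 genes.

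The first question of the design was how far each inducible cutting subunit stood below the constitutive subunit whose place it takes. PSMB8 replaces PSMB5, PSMB9 replaces PSMB6 and PSMB10 replaces PSMB7. In GRCh37 coordinates, as used for the deposited counts, PSMB8 lies at chr6:32808494-32812456 on the minus strand and PSMB9 at chr6:32811913-32827628 on the plus strand, so that their exons overlap over 139 bases, while PSMB10 lies at chr16:67968409-67970767. PSMB5 lies at chr14:23485752-23504439, PSMB6 at chr17:4699439-4701797 and PSMB7 at chr9:127115744-127177723. All 6 are protein-coding genes and the values are for their exons.

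Interferon acts on several of these genes through short promoter elements, and the promoters of the interferon-inducible members are shown so that these elements can be seen beside the levels. The windows are RefSeq sequences on GRCh38.p14, from 250 bases before to 50 bases after a start site, and capitals mark matches to GAAA, a gap of 2 bases and GAAA again (interferon-stimulated response element core), TTCNNNGAA (interferon gamma activated site), TGACNNNGC (antioxidant response element core) or CCAAT, read on both strands. RefSeq gives PSMB8 a pair of windows, of which the other (chr6:32844630-32844929) held no match to these motifs and is not shown. The lines give PSMB8 (chr6:32843998-32844297, minus strand), PSMB9 (chr6:32853942-32854241, plus strand), PSMB10 (chr16:67936801-67937100, minus strand), PSME1 (chr14:24135944-24136243, plus strand) and PSME2 (chr14:24146561-24146860, minus strand).
PSMB8: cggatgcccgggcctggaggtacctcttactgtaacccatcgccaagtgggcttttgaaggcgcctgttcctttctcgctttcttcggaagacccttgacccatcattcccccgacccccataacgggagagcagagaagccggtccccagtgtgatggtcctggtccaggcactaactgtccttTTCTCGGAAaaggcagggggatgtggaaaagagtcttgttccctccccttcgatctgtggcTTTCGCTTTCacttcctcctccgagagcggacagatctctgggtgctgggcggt
PSMB9: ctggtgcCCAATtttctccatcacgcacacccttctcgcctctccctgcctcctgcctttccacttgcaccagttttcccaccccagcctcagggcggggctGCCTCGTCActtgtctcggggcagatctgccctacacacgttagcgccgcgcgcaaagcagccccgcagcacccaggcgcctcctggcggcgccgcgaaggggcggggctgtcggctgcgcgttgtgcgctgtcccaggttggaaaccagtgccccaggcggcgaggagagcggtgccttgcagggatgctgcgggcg
PSMB10: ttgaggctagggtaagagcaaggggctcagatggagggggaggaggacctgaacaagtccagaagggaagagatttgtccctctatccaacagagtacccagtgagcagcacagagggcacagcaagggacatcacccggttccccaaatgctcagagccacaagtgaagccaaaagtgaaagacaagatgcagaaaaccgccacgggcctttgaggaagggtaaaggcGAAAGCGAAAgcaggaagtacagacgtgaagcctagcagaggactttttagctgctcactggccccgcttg
PSME1: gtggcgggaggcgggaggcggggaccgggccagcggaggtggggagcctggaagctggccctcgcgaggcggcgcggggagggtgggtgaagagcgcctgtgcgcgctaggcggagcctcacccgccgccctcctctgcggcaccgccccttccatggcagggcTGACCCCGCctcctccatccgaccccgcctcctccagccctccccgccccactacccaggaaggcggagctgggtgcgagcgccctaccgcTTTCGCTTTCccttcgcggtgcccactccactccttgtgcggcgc
PSME2: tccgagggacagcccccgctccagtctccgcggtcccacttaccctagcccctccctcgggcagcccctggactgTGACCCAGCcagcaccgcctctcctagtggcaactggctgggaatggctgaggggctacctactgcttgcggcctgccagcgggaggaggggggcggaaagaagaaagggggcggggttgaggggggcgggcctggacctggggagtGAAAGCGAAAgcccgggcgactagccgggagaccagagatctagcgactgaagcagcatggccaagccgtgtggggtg
The interferon-stimulated element matched at base 247 of the PSMB8 window shown, 230 of PSMB10, 256 of PSME1 and 223 of PSME2, and in each of these the letters in the gap were GC, counting either strand. PSMB8 also had the interferon gamma activated site, at base 186. In the PSMB9 window the matches were a CCAAT box at base 8 and an antioxidant response element core at base 103. The marked matches within each of these windows did not overlap, and a match is a description of letters and not a measured site.

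PSMB8 was at the edge of detection. Its counts were 2, 6, 5 and 6 in DMSO replicates 1 to 4, against 242.0, 265.7, 282.7 and 244.0 CPM for PSMB5. Over the group, PSMB8 held 19 counts beside 37589 of PSMB5, a share of 0.0505% (exact 95% binomial interval 0.0304 to 0.0789%, counting error only). The lenalidomide libraries had 3, 2, 2 and 3 counts of PSMB8, 10 in all beside 30926, a share of 0.0323% (0.0155 to 0.0594%), and the intervals of the groups overlapped.

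PSMB9 was low but was counted in every library. It had 1.15, 1.05, 1.20 and 0.977 CPM in DMSO, from 37 to 43 counts, while PSMB6 had 98.5, 103.3, 106.2 and 103.6 CPM. PSMB9 thus held 1.05% of the counts of the pair in DMSO (exact interval 0.894 to 1.23%). Per kilobase of deposited width the log2 ratio of PSMB9 to PSMB6 was -10.49 ± 0.14 (SD, n = 4), and per canonical length it was -6.86, which is 116-fold lower.

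PSMB10 was the best expressed inducible subunit. Its level was 11.99, 15.6, 13.1 and 13.9 CPM in DMSO, against 191.0, 197.4, 206.2 and 192.6 CPM for PSMB7, and it held 6.49% of the counts of that pair (exact interval 6.22 to 6.78%). The log2 ratio of PSMB10 to PSMB7 was -5.29 ± 0.16 per kilobase of deposited width, 39.2-fold lower, and -3.85 without division by width, 14.5-fold lower. PSMB10 shares 640 bases, 39.4% of its annotated exon length, with another coding gene model on the same strand, so part of its count may belong to that model.

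In each pair, each of the 4 DMSO libraries had the inducible subunit below its constitutive partner, and the 3 pairs kept one order, with PSMB10 nearest to its partner and PSMB8 farthest from it. An exact sign-flip permutation test over the 4 libraries gave p = 0.125 for each pair, the smallest it can give, so these ratios are given as a description. The PSMB8 to PSMB5 log2 ratio was -14.83 ± 0.73 (SD, n = 4) per deposited width and -11.18 per canonical length, and rests on 19 counts.

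The size of these ratios depends on gene width, most of all on chromosome 6. The deposited exonic width was 5.64 times the union of annotated GENCODE exons for PSMB8, 3.99 times for PSMB9 and 2.94 times for PSMB10, but 0.939 times for PSMB5. Between GABBR1 and DAXX, the stretch that holds the major histocompatibility genes with PSMB8 and PSMB9, 131 of 140 coding genes had a deposited width over 2 times the annotated one, against 0.505% of the other coding genes. In that stretch 53.6% of genes averaged 100 or more counts per library, against 57.1% elsewhere, and the PSMB8 and PSMB9 neighbours TAP1 and TAP2, which pump peptides for antigen presentation, had 27.4 and 56.5 CPM in DMSO. Whether reads of PSMB8 and PSMB9 were lost where they align to more than 1 place was not tested.

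**Figure D2:**
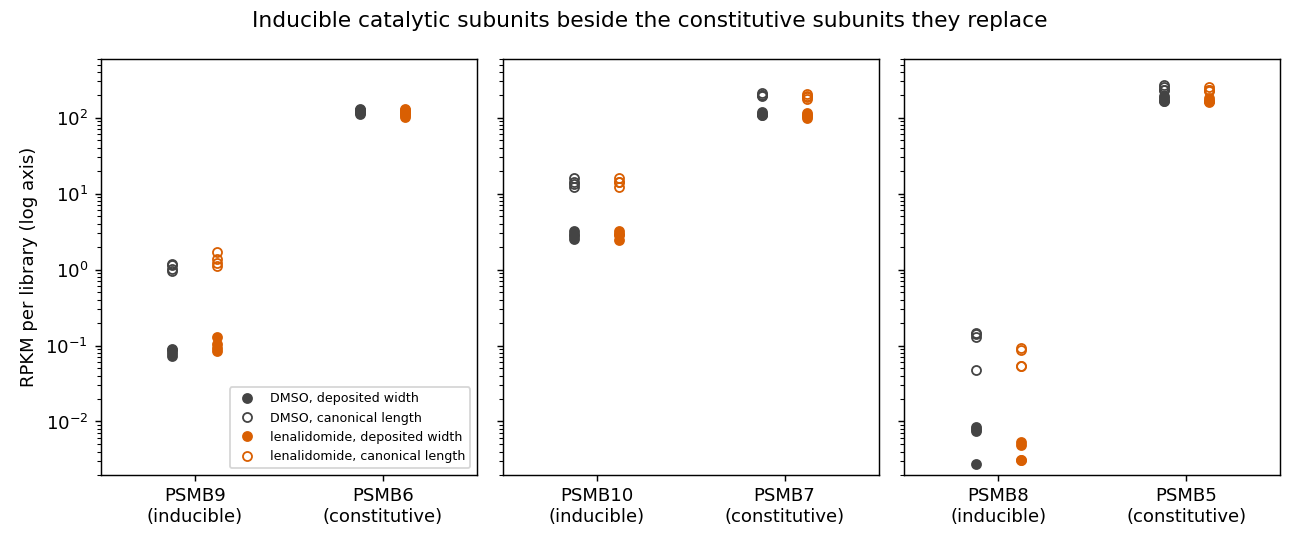
RPKM on a log axis of each inducible cutting subunit and its constitutive partner, with 1 symbol per library (4 DMSO in grey, 4 lenalidomide in orange), filled for deposited width and open for canonical transcript length. The distance between partners shrinks with canonical length, to 116-fold for PSMB9 and 14.4-fold for PSMB10, but the inducible subunit remains the lower one in every library.

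No difference between the treatments in the balance of inducible and constitutive subunits passed the test. With 4 against 4 libraries the exact permutation p cannot fall below 0.0286. A difference in a single pair alone could then not fall below 0.0857 after adjustment over the 3 pairs. Such a difference could not pass the adjusted threshold, so the test does not show that the balance was unchanged. For PSMB9 over PSMB6 the mean log2 ratio was -10.12 with lenalidomide, 0.37 higher than in DMSO (SE 0.16, exact permutation test, two-sided, p = 0.0857, 0.257 adjusted over the 3 pairs). PSMB9 itself had 1.39, 1.12, 1.73 and 1.25 CPM with lenalidomide, so that replicate 2 lay within the DMSO range while the others lay above it. Without lenalidomide replicate 2 the ratio difference was 0.50 with an exact permutation p of 0.0286, the smallest that 4 against 3 libraries allow, and 0.0857 adjusted over the 3 pairs. The difference was 0.078 (SE 0.10, exact permutation p = 0.457) for PSMB10 over PSMB7 and -0.54 (SE 0.44, exact permutation p = 0.229, 0.343 adjusted) for PSMB8 over PSMB5, the last one from 2 to 6 counts per library.

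The second question was whether proteasome mRNA changed with lenalidomide. These are bulk samples, in which fewer cells and less RNA per cell cannot be told apart. None of the 43 genes tested had an adjusted p under 0.05 in edgeR's quasi-likelihood test, and the smallest adjusted p was 0.999; DESeq2 gave 0 as well. None had an unadjusted p under 0.05 either, where 4.18% of all genes tested did. In none did the 4 lenalidomide values lie wholly above or wholly below the 4 DMSO values, where 1.24% of all genes lay wholly above and 0.84% wholly below.

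The estimates were small. Of the 43 genes, 41 had a log2 fold change under 0.1 in size, 95.3% against 71.9% of all genes tested. Among genes that averaged 10 CPM or more, as nearly all members did, the shares were 97.6% of 42 members and 85.4% of 9094 genes. Each 95% confidence interval included 0, and 40 intervals lay within 0.25 on the log2 scale on either side. At 10 CPM or more that held for 95.2% of the members and 81.4% of all genes. Most members stood well above 10 CPM, so the 9094 genes are not matched to them in level, and shares among genes of like level were not computed. Over the 42 members that averaged 10 CPM or more the intervals reached from a 15.3% lower to a 30.4% higher level. Each is a 95% interval for 1 gene, so together they do not bound the changes of all 42. The median log2 fold change was -0.033 and 34 of 43 genes lay below 0 (79.1%), against a median of 0.0025 and 48.7% of all genes. At 10 CPM or more the medians were -0.033 for the 42 members and -0.0049 for the 9094 genes, with 80.95% and 53.4% below 0. That lean rested in part on 1 library: without lenalidomide replicate 4 the median was -0.012 and 24 of 43 lay below 0.

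**Figure D3:**
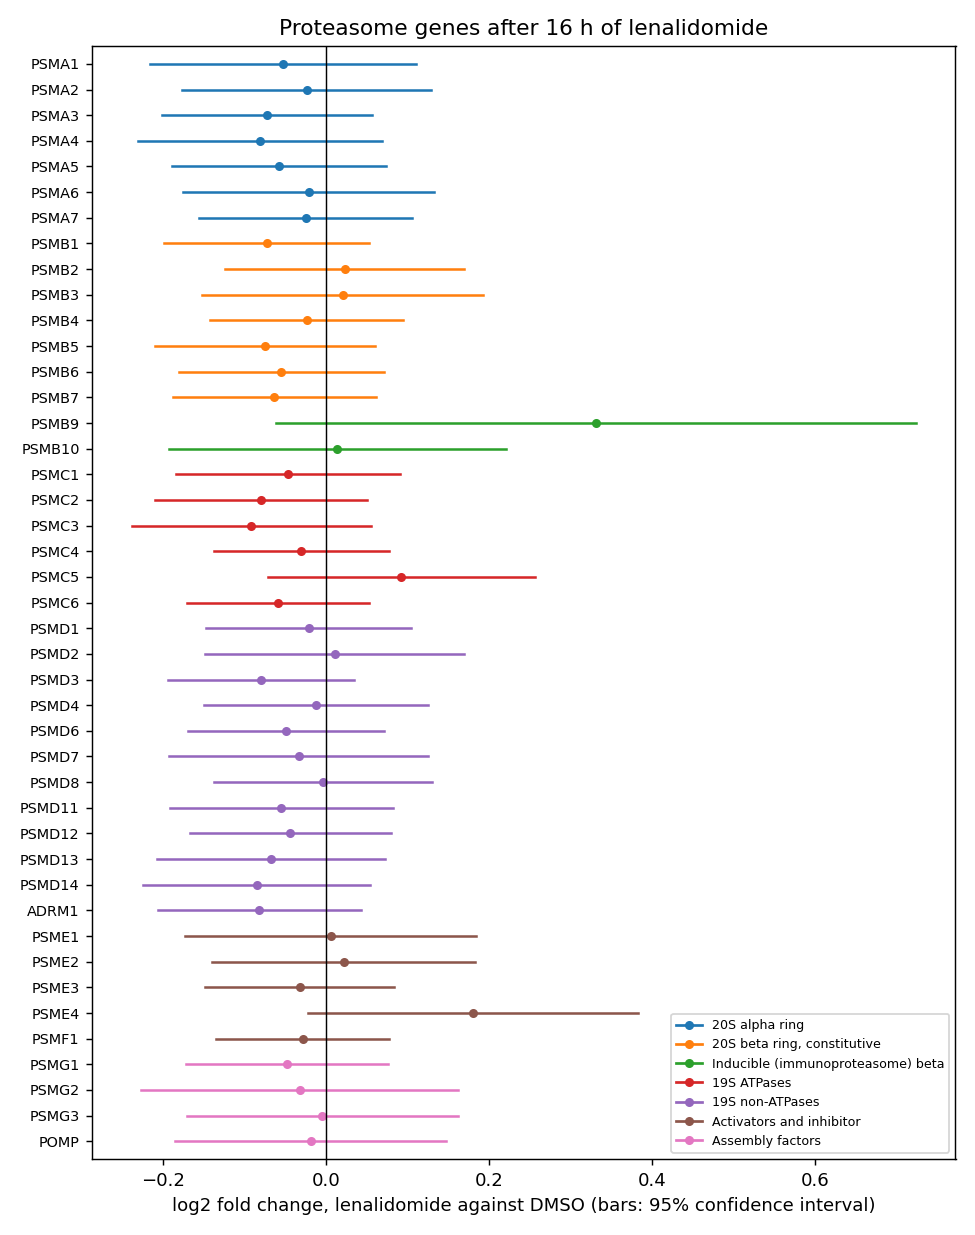
Log2 fold change of lenalidomide against DMSO for the 43 proteasome genes tested, coloured by role, with bars for the 95% confidence interval of the quasi-likelihood fit. Each interval crosses 0, most estimates lie slightly left of 0, and PSMB9 (0.33) and PSME4 (0.18) have the highest estimates.

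By role, the estimates of the core leaned to the same side, below 0, where 53.4% of all genes at 10 CPM or more also lay. All 7 alpha subunits had estimates below 0, from -0.081 for PSMA4 to -0.022 for PSMA6, with a median of -0.053, and none passed the test. Among the constitutive beta subunits 5 of 7 were below 0, with a median of -0.055. PSMB5 had 242.0 to 282.7 CPM in DMSO and 243.6, 262.8, 243.0 and 232.6 CPM with lenalidomide, a log2 fold change of -0.075 (95% interval -0.21 to 0.060). PSMB6 had 96.5, 105.7, 103.8 and 89.99 CPM with lenalidomide, a log2 fold change of -0.055 (interval -0.18 to 0.070). Both ranges overlapped those in DMSO.

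PSMB7, the trypsin-like subunit, had 183.9, 204.3, 190.9 and 173.8 CPM with lenalidomide, a log2 fold change of -0.064 (interval -0.19 to 0.061). The inducible subunits PSMB9 and PSMB10 had estimates of 0.33 (SE 0.18) and 0.013, and the PSMB9 interval of -0.062 to 0.72 was the widest among the members. PSMB10 had 13.9, 13.7, 15.6 and 11.9 CPM with lenalidomide and its groups overlapped almost completely.

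Of the 19S genes, 5 of 6 ATPases and 11 of 12 non-ATPases had estimates below 0, with medians of -0.053 and -0.047, and none passed the test. PSMC3 had the lowest estimate of all members, -0.092 (SE 0.068), from 246.4, 250.6, 283.9 and 237.4 CPM in DMSO and 238.1, 245.8, 255.6 and 215.6 CPM with lenalidomide. The highest DMSO value and the lowest lenalidomide value each stood apart from the others. ADRM1 had 102.5, 109.2, 120.3 and 105.9 CPM in DMSO and 100.6, 107.7, 105.1 and 100.3 CPM with lenalidomide, a log2 fold change of -0.082 (interval -0.21 to 0.042). PSMD3, a subunit of the 19S lid, had 141.0, 157.8, 142.3 and 143.1 CPM in DMSO and 134.0, 137.9, 137.0 and 143.7 CPM with lenalidomide, a log2 fold change of -0.080 (interval -0.20 to 0.034). In PSMD3 only lenalidomide replicate 4 reached into the DMSO range.

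PSME4 moved in part of the lenalidomide libraries. It had 147.3, 145.9, 155.9 and 159.6 CPM in DMSO, and 148.9, 145.6, 199.2 and 195.8 CPM with lenalidomide. Replicates 3 and 4 of lenalidomide therefore stood above all DMSO libraries while replicates 1 and 2 lay among them. The log2 fold change was 0.18 (SE 0.094, interval -0.023 to 0.38), with an unadjusted p of 0.078 in edgeR's quasi-likelihood test, an adjusted p of 0.999 and an exact permutation p of 0.343 over the 4 and 4 values. In 4 of the other fits run, those with no filter, with the replicate block and without lenalidomide replicate 1 or 2, its unadjusted p was 0.0415, 0.0262, 0.0222 and 0.0114, and its adjusted p was never under 0.05.

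The other activators PSME1, PSME2 and PSME3 had estimates of 0.0056, 0.021 and -0.033, and the inhibitor PSMF1 had -0.029. The 4 assembly factors all had estimates below 0, with a median of -0.026, and none passed the test. POMP had 104.2, 113.0, 105.2 and 112.1 CPM in DMSO and 106.3, 121.8, 110.9 and 89.6 CPM with lenalidomide. Its highest and its lowest value were both lenalidomide libraries, and the log2 fold change was -0.019 (interval -0.19 to 0.15). PSMG1 and PSMG2, the alpha ring pair, had estimates of -0.048 and -0.032.

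The summed levels of the members overlapped between the treatments. Summed over the 44 genes, DMSO libraries had 7782 to 8116 CPM and lenalidomide libraries 7184 to 8121 CPM, so that the lenalidomide range enclosed the DMSO range. Over the 42 genes above 10 CPM the coefficient of variation between DMSO libraries had a median of 5.23%, from 1.35% for PSMD12 to 14.8% for PSMG2, and between lenalidomide libraries a median of 6.63%, from 2.35% for PSMG3 to 16.9% for PSME4. Lenalidomide replicate 4, the smallest library, lay lowest, with 37 of 43 genes below the mean of its group and a median deviation of -0.10 (log2, CPM plus 0.1), against a median of -0.020 over all genes at 10 CPM or more. DMSO replicate 3 had both directions, from -0.32 for PSMG2 to 0.24 for PSMD2, and PSMA1, PSMB2 and PSMB3, which were low there, lay above the mean of their group in DMSO replicate 2. Library size did not go with the members' sum in 1 direction: among the lenalidomide libraries the smallest had the lowest sum, while among the DMSO libraries the smallest, replicate 3, had the highest.

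**Figure D4:**
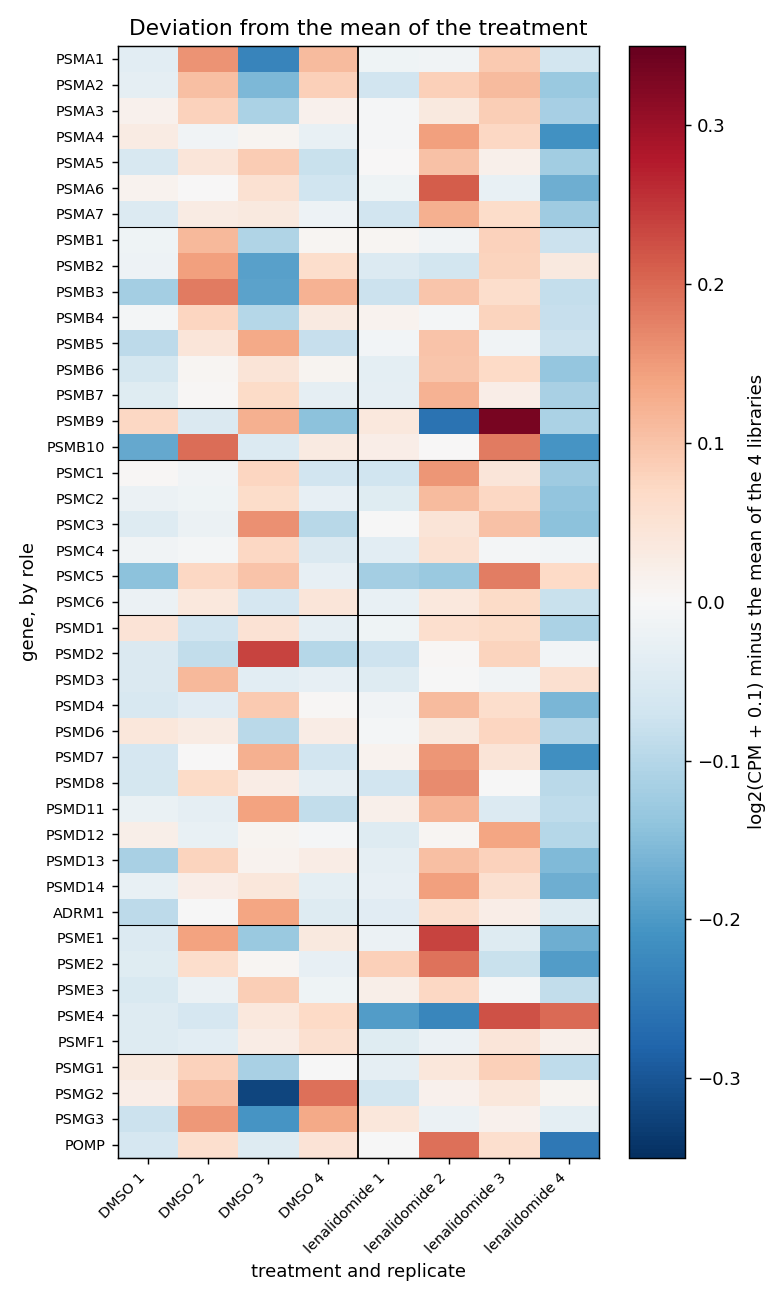
Deviation of each proteasome gene in each library from the mean of its treatment, as log2(CPM + 0.1), with red for above and blue for below and the genes ordered by role. The column of lenalidomide replicate 4 is blue in 37 of 43 genes, while PSME4 is red there and in lenalidomide replicate 3.

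Reads can be shared with other genes for part of the members. In the GENCODE annotation 17 members have named pseudogenes, 42 in all, and none of these 42 is in the count table. Exons of 23 members overlap those of another gene, and 5 of them (PSMA1, PSMA2, PSMA6, PSMB10 and PSMC2) overlap a coding gene on the same strand. The values of these members are uncertain to that extent.

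Other genes around the proteasome were also without an adjusted p under 0.05. Of 4 genes that control proteasome transcription, NFE2L1 (NRF1), the factor that raises proteasome genes when proteasome activity is low, had a log2 fold change of -0.012, NFE2L2 had 0.017, and DDI2, the protease that activates NFE2L1, had 0.17 (SE 0.071, unadjusted p = 0.0341 in edgeR's quasi-likelihood test). DDI2 had 41.8, 36.3, 40.9 and 42.3 CPM in DMSO and 42.4, 41.4, 49.3 and 47.9 CPM with lenalidomide. Of 5 tested further subunits and bound enzymes, USP14, a deubiquitinase that sits on the 19S particle, had 54.1, 55.5, 70.8 and 64.0 CPM in DMSO and 61.2, 71.2, 91.0 and 93.7 CPM with lenalidomide. Its log2 fold change was 0.38 (SE 0.12, unadjusted p = 0.0082 in edgeR's quasi-likelihood test, adjusted p = 0.999). In USP14 and DDI2, as in PSME4, lenalidomide replicates 3 and 4 held the highest values. In USP14 and PSME4, replicates 3 and 4 were also the higher ones among the DMSO libraries.

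The 6 19S chaperones and late assembly genes (PSMD5, PSMD9, PSMD10, PAAF1, PSMG4 and TXNL1) had 3 estimates above and 3 below 0, all within 0.040 of it. The 8 shuttle factors and unfoldase genes, among them VCP and RAD23B, had 4 above and 4 below 0, with a median of 0.0011. The tissue-restricted core subunits PSMA8 and PSMB11, of testis and thymus, had 0 or 1 count in each library. Of the 13 interferon-inducible antigen processing genes, such as TAP1 and B2M, 6 had estimates above and 7 below 0, with a median of -0.0047 and none with an unadjusted p under 0.05.

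Promoter windows were found in RefSeq for 38 of the 44 members, 48 windows in all. The antioxidant response element core TGACNNNGC, the letters bound by NFE2L1 and NFE2L2, was in 31.2% of the members' windows and in 13.3% of all 35116 windows, and occurred in 14 members, among them PSMC4, PSMC5, PSMD1, PSMD12, PSME4 and ADRM1. The interferon-stimulated response element core was in 12.5% against 3.57%, and its members were PSMA4, PSMB4, PSMB8, PSMB10, PSME1 and PSME2. TTCNNNGAA was in 14.6% against 7.66% and CCAAT in 41.7% against 34.6%. The windows of ADRM1 overlap, and its antioxidant response element core and its CCAAT box are each a single site counted in both. These shares describe letters in windows of equal length and carry no test.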

How the data were processed

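Total RNA of Hct116 cells was sequenced in 8 libraries, 4 per treatment, prepared with ScriptSeq v2. The authors aligned reads to hg19 (GRCh37) with spliced alignment in QuasR at default parameters and deposited raw read counts per gene of the UCSC known genes, with each gene's exonic width. The submitters' processing notes name bcl2fastq 2.17. The QuasR version and any strand setting are not given in the sources used here, and no per-sample column was left without a sample.

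Counts were tested in R 4.3.3 with edgeR 4.0.16 (filterByExpr at 10 counts per library and 15 in total, TMM factors, glmQLFit and glmQLFTest), over 13925 genes, with Benjamini-Hochberg adjustment at 0.05 and 95% confidence intervals. CPM is scaled by library size and TMM factor. RPKM is CPM per kilobase of deposited width or, as an alternative chosen after seeing the data, of the Ensembl canonical transcript in GENCODE. Log2 ratios were compared with exact permutation tests in scipy 1.17.1. On simulated counts in which 200 genes were shifted by 0.58 on the log2 scale, the test recovered 159 genes with 16 false calls. With a shift of 1 it recovered 184 with 8 false calls, and with no change it made 0 calls. At 0.58 the false calls were a larger share of the calls than 0.05, and at 1 a smaller one. Both shifts are larger than any estimate of the members, so they do not show what the test recovers at that size.

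The genes and lists were chosen with earlier results of these data known. Values in every library are given for PSMB5 to PSMB10, for POMP and for the 5 members with the smallest p, and levels for the highest and lowest member of each role. USP14 and DDI2 were named after their values were seen. Same-numbered libraries deviated together with correlations of -0.024 to 0.27, the highest in replicate 4. Correlations between libraries of different number were not computed, so these values cannot show whether the replicate numbers pair the samples. Alternatives were RLE scaling, DESeq2 1.42.0, other filters, a replicate block, and omission of each library in turn. Precision is limited by the 4 libraries per treatment. Over the 42 members above 10 CPM the coefficient of variation had medians of 5.23% in DMSO and 6.63% with lenalidomide. Depth, at 28218471 to 37473413 counts per library, limits PSMB8 and PSMB9 most. Counting intervals cover counting error only, since the reads carry no molecular identifiers.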

Additional observations from a re-analysis of the deposited data

Results flagged for a closer look

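In 4 of 88 groups of 4 libraries, 1 library stood apart from the other 3 by more than Dixon's 95% critical value for the gap over the range, where chance gives about 1 in 20 groups. That number is near the share that chance gives, so no pattern by treatment or role is drawn from it. All 4 were among the DMSO libraries and in 19S genes, which are 6 ATPases and 12 non-ATPases of the 44 members. PSMD2 had 470.1 CPM in DMSO replicate 3 against 372.7 to 385.6 in the others. PSMC2 had 243.5 CPM in DMSO replicate 3 against 228.3 to 230.7. PSMD6 went the other way in the same library, with 215.1 CPM against 233.6 to 236.1. PSMD3 had 157.8 CPM in DMSO replicate 2 against 141.0 to 143.1, and it is one of the 5 members with the smallest p in the comparison of treatments.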

How the results depend on the processing

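None of the members had an adjusted p under 0.05 in any alternative run. The number of all genes past that threshold was 2, and became 9 with DESeq2, 4 with no filter and 1 to 2 when a library was left out. The number of members with an unadjusted p under 0.05 was 0, and became 1 with no filter (PSME4) and 0 to 2 when a library was left out: PSMA1 and PSMG2 without DMSO replicate 3, PSME4 without lenalidomide replicate 1, and PSME4 and PSMB9 without lenalidomide replicate 2. Whether the replicate numbers pair the samples is not known. With the replicate number as a block, 6 genes passed the adjusted threshold, 1 member (PSME4) had an unadjusted p under 0.05, and the median log2 fold change of the members was -0.033. When a library was left out that median ran from -0.062 to -0.012.

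The DMSO log2 ratios without division by width were -6.56 for PSMB9 over PSMB6, -3.85 for PSMB10 over PSMB7 and -11.07 for PSMB8 over PSMB5. On canonical length, chosen after seeing the data, they were -6.86, -3.84 and -11.18. The PSMB9 ratio in the lenalidomide libraries was -10.12. With libraries left out, the DMSO ratios ran from -10.54 to -10.44, from -5.36 to -5.25 and from -14.99 to -14.47. Their differences between treatments ran from 0.28 to 0.50 (PSMB9), where 0.50 without lenalidomide replicate 2 had an exact permutation p of 0.0286 before and 0.0857 after adjustment over the 3 pairs, from 0.024 to 0.14 (PSMB10) and from -0.90 to -0.38 (PSMB8). The cause was not tested.

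Of 209 alternative fold changes of 19 named genes, 192 kept their direction and 17, in 8 genes, changed sign, each when 1 library was left out. These ranges were -0.052 to 0.083 for PSMB10, -0.087 to 0.057 for POMP, -0.078 to 0.017 for PSMA2, -0.098 to 0.032 for PSMA6, -0.040 to 0.072 for PSMB2, -0.051 to 0.038 for PSMD4, -0.046 to 0.082 for PSME2 and -0.13 to 0.033 for PSMG2. Depth limits PSMB8, at 2 to 6 counts per library, and PSMB9, at 36 to 57 counts.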
